A study of Mus musculus with 10 samples.

Results

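Glycolysis and the response to low oxygen are described here through 33 genes, picked by GENCODE M21 gene symbol out of 54336 genes counted in the series, with no threshold on any value. They comprise 4 transporters of glucose and lactate, 11 enzymes and regulators of the steps that spend energy, 8 enzymes of the steps that recover it or direct pyruvate, 3 genes of oxygen sensing and 7 targets of the hypoxia-inducible factor. The libraries came from CD8 T cells whose transgenic receptor recognises P1A, a tumour antigen, which were activated for 24 h, transduced with a retrovirus, given 24 h later to Rag1-/- B10D2 mice carrying P511 mastocytoma (a mast cell tumour), and sorted from the tumours on day 7 after transfer. The vector encoded NFAT5, a transcription factor of the osmotic stress response (libraries 1, 5 and 8), CA-RIT NFAT1, a constantly active NFAT1 that cannot pair with AP-1 (2, 4, 9 and 10), or eGFP alone (3, 6 and 7). All 3 groups therefore share the receptor, the activation, the transduction and the host, whose Rag1 deletion leaves it without T and B cells of its own. The labels give the strain as C57BL/6, name no promoter for the vectors, and do not say that each library is a mouse of its own. The p-values then measure the spread between these libraries, which may be technical.

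In glycolysis, glucose enters the cell through transporters, is phosphorylated and split at the cost of ATP, and the resulting triose phosphates are oxidised to pyruvate with a return of ATP. Activated T cells run this pathway fast even in oxygen, turn much of the pyruvate into lactate and export it. When oxygen is low, the prolyl hydroxylases that mark the factor HIF-1 alpha for destruction slow down, and HIF-1 raises transcription of glucose transporters, nearly every glycolytic enzyme and a set of other target genes, binding DNA at the short hypoxia response element. Solid tumours are often low in oxygen and glucose, so these genes are a common readout of what T cells meet there.

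The libraries differed in kind before any comparison. Of the 10, eGFP 7 held 51112 estimated reads and CA-RIT NFAT1 10 had 1 read on Cd8a among 32540944 reads, and both were left out of the tests. The other 8 held 18813321 to 36626336 reads, with Cd8a at 240 to 354 TPM (a level per transcript length that sums to the same total in every library). In the same 8, 10 of 10 CD8 T cell markers had reads, while the summed level of 11 mast cell and tumour markers was 41.2 to 224 TPM, that of 14 macrophage and monocyte markers 63.3 to 315 TPM, and that of 7 endothelial and fibroblast markers 5.98 to 29.0 TPM, with Kdr, Col1a1, Col3a1 and Dcn at 0. Nfat5 was at 29.1, 46.1 and 30.1 TPM in the NFAT5 libraries, 2.10, 1.35 and 0.789 TPM in CA-RIT NFAT1 2, 4 and 9 and 0.218 and 1.05 TPM in eGFP 3 and 6. Nfatc2, the gene of NFAT1, was at 12.3, 7.18 and 7.04 TPM in the NFAT5 libraries, 18.1, 14.5 and 5.79 TPM in CA-RIT NFAT1 2, 4 and 9 and 0.618 and 8.25 TPM in eGFP 3 and 6. Nfat5 thus set the NFAT5 libraries apart, while Nfatc2 did not separate the libraries labelled CA-RIT NFAT1 from the NFAT5 ones. Within the eGFP group, eGFP 3 is the deepest library yet had reads on 13186 genes, against 16050 in eGFP 6. The log2 fold changes printed for single genes against eGFP are therefore given with and without it.

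The promoters of these genes were searched for the element first. Its core, ACGTG or GCGTG on either strand, was looked for in the RefSeq windows of 300 bases around a start site (GRCm38.p6 coordinates), which were found for 32 of the 33 genes (49 windows) but not for Slc2a3. ACGTG was present in 53.1% of the 49 windows and in 19.6% of all 32851 windows of that length, and GCGTG in 55.1% and 32.4%. Either core was present in 77.6% of the 49 and 43.8% of all, and among the 32 genes Eno2, Gpi1 and Tpi1 had neither. The GC content differed too, with a median of 62.3% over the 49 windows and 52.7% over all. For the NFAT core GGAAA the shares were 57.1% and 61.3%, and for the longer form TGGAAA, which contains it, 16.3% and 21.4%. Matches may overlap one another, and each palindromic CACGTG counts as 2 matches. A match is only a stretch of letters here, since no binding was measured.

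The stretches of 250 bases before the start site are printed for the genes with a match among those that had an unadjusted p under 0.05 in both comparisons with eGFP, followed by Ldha, whose window held the most matches of the 49. They run 5′ to 3′ on the gene's own strand, in RefSeq's GRCm38.p6 sequence, and capitals mark ACGTG or GCGTG read on either strand (CACGT and CACGC are their reverse complements). Aldoa is at chr7:126799255-126799504, Ankrd37 at chr8:45999851-46000100, Higd1a at chr9:121857797-121858046 and Pfkl at chr10:78009808-78010057, all on the minus strand, and Ldha is at chr7:46845554-46845803 on the plus strand.
Aldoa: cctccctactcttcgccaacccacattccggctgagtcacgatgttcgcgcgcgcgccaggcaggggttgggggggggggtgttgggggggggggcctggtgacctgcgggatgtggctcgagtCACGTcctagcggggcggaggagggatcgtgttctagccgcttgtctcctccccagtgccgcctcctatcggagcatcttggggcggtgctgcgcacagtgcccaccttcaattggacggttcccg
Ankrd37: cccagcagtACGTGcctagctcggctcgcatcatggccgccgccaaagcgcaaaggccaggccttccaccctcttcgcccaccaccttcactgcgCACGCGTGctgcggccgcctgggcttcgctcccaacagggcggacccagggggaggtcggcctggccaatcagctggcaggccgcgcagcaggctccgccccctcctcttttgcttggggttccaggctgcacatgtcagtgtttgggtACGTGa
Higd1a: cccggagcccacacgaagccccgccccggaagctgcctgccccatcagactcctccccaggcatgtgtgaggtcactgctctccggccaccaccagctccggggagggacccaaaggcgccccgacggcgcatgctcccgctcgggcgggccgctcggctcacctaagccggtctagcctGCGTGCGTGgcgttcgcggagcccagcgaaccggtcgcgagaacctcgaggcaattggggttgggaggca
Pfkl: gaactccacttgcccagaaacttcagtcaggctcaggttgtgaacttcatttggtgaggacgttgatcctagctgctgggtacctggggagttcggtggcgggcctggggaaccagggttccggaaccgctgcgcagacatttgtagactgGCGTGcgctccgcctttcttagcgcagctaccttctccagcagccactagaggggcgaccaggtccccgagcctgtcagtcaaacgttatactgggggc
Ldha: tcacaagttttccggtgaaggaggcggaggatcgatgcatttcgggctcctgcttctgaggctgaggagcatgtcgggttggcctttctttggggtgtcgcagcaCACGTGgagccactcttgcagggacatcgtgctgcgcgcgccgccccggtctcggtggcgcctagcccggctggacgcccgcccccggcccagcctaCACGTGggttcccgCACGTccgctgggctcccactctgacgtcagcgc
Ankrd37 had 4 matches, which began at positions -241, -155, -152 and -6 from its start site. Aldoa had 1 match and Pfkl had 1. Higd1a had 3, a pair sharing letters in the run printed and another that began 43 bases after the start site. This RefSeq start site lies 234 bases from the GENCODE start of Higd1a-206, the Higd1a transcript with the most reads. For Ankrd37 and Ldha that distance was 17 and 35 bases. Ldha had 7, 5 of them in the printed stretch, including both palindromes, each of which counts as 2. Its first place rests on this way of counting, since a window of Hk1 had 5 matches and no palindrome. Tpi1 met the same condition on p as the first 4 genes but held no match in its window of 300 bases.

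The 33 genes together took between 1.04% and 1.36% of all TPM in the 8 libraries. Their sums were 13646, 10397 and 11222 TPM in NFAT5 1, 5 and 8, 11327, 10915 and 12310 TPM in CA-RIT NFAT1 2, 4 and 9, and 13467 and 13320 TPM in eGFP 3 and 6. NFAT5 and eGFP overlapped, since NFAT5 1 lay above both eGFP libraries, while the 3 CA-RIT NFAT1 sums lay below both. Most of the total came from a handful of enzymes of the trunk of the pathway. Ordered by their median over the 8 libraries, Gapdh came first with 4063 TPM, then Eno1 with 2429, Ldha with 1858, Aldoa with 1143, Tpi1 with 540 and Gpi1 with 394 TPM. The ranges of Ldha (1606 to 2402 TPM) and Aldoa (745 to 1482 TPM) did not touch, nor did those of Gapdh (3551 to 4387 TPM) and Eno1 (2140 to 2768 TPM), but Eno1 and Ldha overlapped, as did Aldoa and Tpi1 (340 to 1015 TPM).

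**Figure D1:**
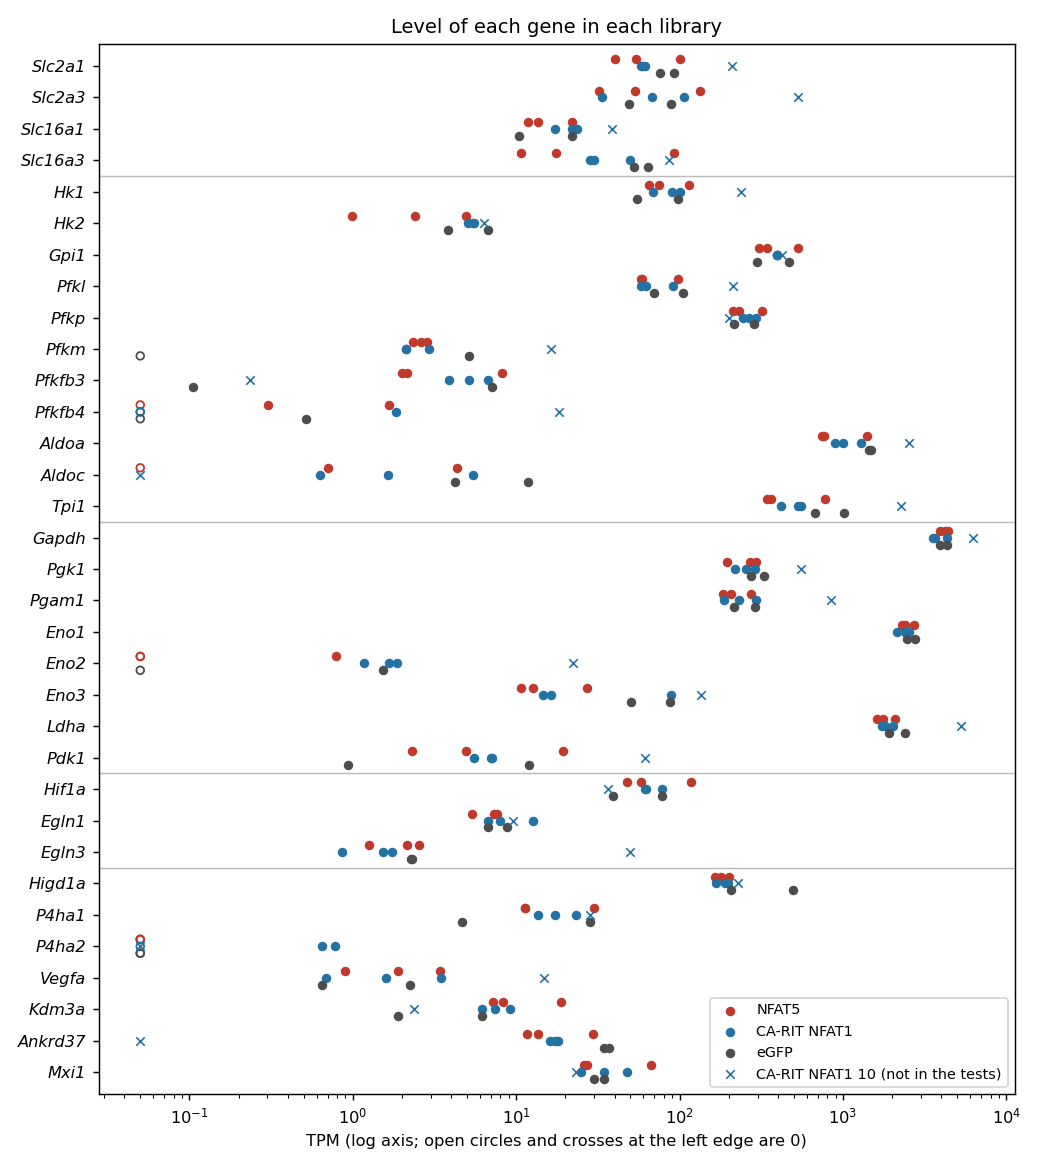
Level of each of the 33 genes in TPM on a log axis, with 1 point for each library and lines between the 5 role groups. Gapdh, Eno1 and Ldha lie highest, P4ha2 and Pfkfb4 lowest, and the cross of CA-RIT NFAT1 10 lies above the points of the 8 tested libraries for 18 genes.

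Among the transporters, the glucose carriers GLUT1 (Slc2a1) and GLUT3 (Slc2a3) had like levels. Slc2a1 was at 100.2, 54.2 and 40.3 TPM in NFAT5 1, 5 and 8, 61.0, 58.0 and 59.0 TPM in CA-RIT NFAT1 2, 4 and 9, and 75.6 and 92.6 TPM in eGFP 3 and 6. Its share of the summed level of both carriers was 36.3% to 63.9% across the 8 libraries. Slc2a3 was at 133, 53.0 and 31.9 TPM in the NFAT5 libraries, 107, 67.6 and 33.3 TPM in the CA-RIT NFAT1 libraries and 48.9 and 87.9 TPM in the eGFP libraries, so that the NFAT5 range held those of both other groups. Of the monocarboxylate carriers that move lactate, MCT4 (Slc16a3) took 47.3% to 83.6% of the summed level and MCT1 (Slc16a1) the rest. Slc16a3 was at 92.4, 17.5 and 10.6 TPM in the NFAT5 libraries, 49.4, 28.4 and 30.0 TPM in the CA-RIT NFAT1 libraries and 52.8 and 63.8 TPM in the eGFP libraries. The spread inside the NFAT5 group, from NFAT5 1 at the top to NFAT5 8 at the bottom, was wider than the distance between any groups.

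Of the hexokinases, which trap glucose by phosphorylation, Hk1 took 89.1% to 98.5% of the summed level. Hk2, the form that activation and HIF-1 are known to induce, was at 4.92, 2.41 and 0.993 TPM in NFAT5 1, 5 and 8, 5.04, 5.47 and 5.53 TPM in CA-RIT NFAT1 2, 4 and 9 and 6.76 and 3.81 TPM in eGFP 3 and 6. Its share of hexokinase was 2.91 ± 1.32% with NFAT5 (SD, n = 3), 5.99 ± 1.32% with CA-RIT NFAT1 (SD, n = 3) and 7.33 ± 5.10% with eGFP (SD, n = 2), and NFAT5 1 lay above eGFP 6. The CA-RIT NFAT1 libraries lay above all 3 NFAT5 libraries in this share, but not when it was taken from estimated reads in place of TPM. Phosphofructokinase, the committed step, was mostly the platelet form Pfkp, with 71.9% to 82.0%, then the liver form Pfkl, with 17.4% to 26.8%, and at most 1.31% of the muscle form Pfkm. Pfkfb3 and Pfkfb4 make the activator fructose 2,6-bisphosphate. Pfkfb3 was at 0.105 to 8.22 TPM and Pfkfb4 at 0 to 1.84 TPM. Aldolase was nearly all Aldoa, with at least 99.2% of the summed level, and Aldoc stayed at 0 to 11.8 TPM. Enolase was Eno1 in at least 95.9%, with Eno3, the muscle form, at 10.7 to 88.8 TPM and Eno2, the neuronal form, at 0 to 1.86 TPM.

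**Figure D2:**
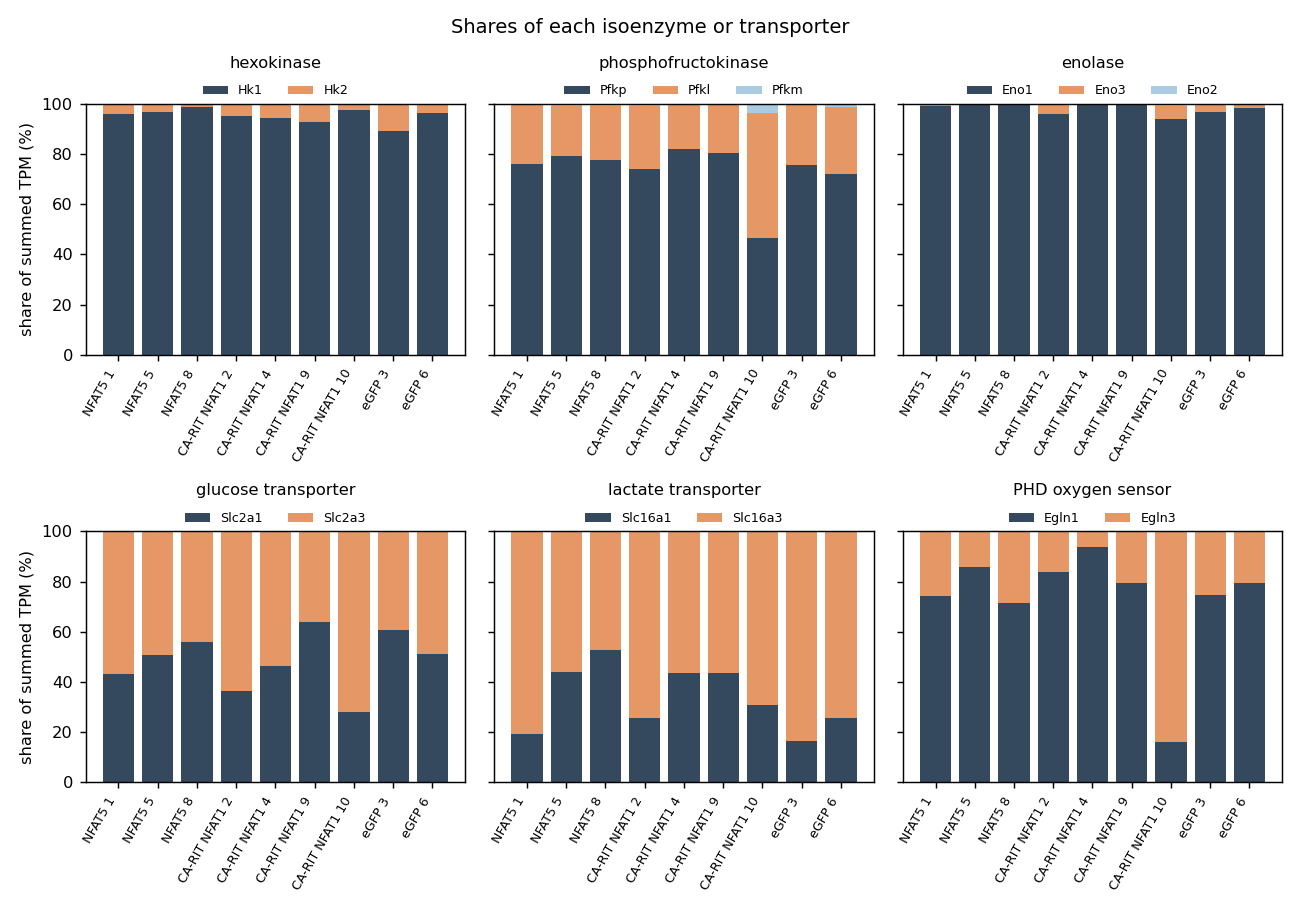
Share of each gene in the summed TPM of its family, in percent, in the 8 tested libraries and CA-RIT NFAT1 10. In the tested libraries Hk1, Pfkp, Eno1 and Egln1 hold most of their families, while in CA-RIT NFAT1 10 Egln1 holds 16.1% and Pfkp 46.6%.

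The remaining genes of the trunk were abundant. Pgk1, which makes the first ATP of the payoff steps, lay at 196 to 326 TPM, Pgam1, the mutase after it, at 183 to 293 TPM, and Pfkp at 211 to 320 TPM. Pdk1, the kinase that keeps pyruvate out of the mitochondrial dehydrogenase, was low, at 19.2, 2.32 and 4.93 TPM in NFAT5 1, 5 and 8, 7.07, 6.96 and 5.50 TPM in CA-RIT NFAT1 2, 4 and 9, and 0.932 and 12.0 TPM in eGFP 3 and 6. Hif1a, which encodes the oxygen-regulated subunit, was at 118, 47.6 and 57.7 TPM in the NFAT5 libraries, 78.4, 61.7 and 61.9 TPM in the CA-RIT NFAT1 libraries and 39.3 and 77.9 TPM in the eGFP libraries. For both genes NFAT5 1 was the highest of the 8 libraries and eGFP 3 the lowest. Of the prolyl hydroxylases, Egln1 (PHD2) took 71.5% to 93.7% of the summed level and Egln3 (PHD3), a HIF target itself, was at 0.860 to 2.53 TPM.

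The HIF targets outside glycolysis ran over a wide range. Higd1a, a mitochondrial protein of the hypoxia response, was at 165 to 495 TPM, with eGFP 3 alone above 205 TPM. Mxi1, a MYC antagonist, was at 24.9 to 66.3 TPM, Ankrd37, a small ankyrin repeat protein, at 11.6 to 36.8 TPM, P4ha1, a collagen prolyl hydroxylase, at 4.63 to 29.7 TPM, and the histone demethylase Kdm3a at 1.90 to 18.8 TPM. Vegfa, the angiogenic factor, was at 0.650 to 3.46 TPM. P4ha2, the sister of P4ha1, had 0 reads in 6 of the 8 libraries and 30 and 47 reads in CA-RIT NFAT1 2 and 9.

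The comparison of NFAT5 with eGFP asks how forced NFAT5 alters these genes inside the tumour. No member passed the test (edgeR's quasi-likelihood test, Benjamini-Hochberg adjustment over all genes at 0.05), and 0.0% of the 14473 genes tested did. The lowest adjusted p of a member was 0.653. All 33 members passed the filter on low counts, but P4ha2 had 0 reads in both groups. Of the other 32, 24 had a negative fold change and 8 a positive one, while 45.8% of all genes were on the lower side. The median log2 fold change of the 32 was -0.38 and that of all genes 0.08. At an unadjusted p under 0.05, where all genes gave 4.01% on the lower and 3.25% on the higher side, there were 6 members lower with NFAT5 (Aldoa, Eno3, Higd1a, Tpi1, Ankrd37 and Pfkl) and 1 higher (Kdm3a). DESeq2 called 102 genes and no member, and 1051 genes were under an unadjusted p of 0.05 in edgeR.

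The 6 lower members are 4 glycolytic enzymes and 2 HIF targets, and all fold changes below come from the 8-library fit and use TMM-scaled counts relative to library size (CPM), the scale of that test. Aldoa (ENSMUSG00000030695, chromosome 7, 126795234 to 126800751), the main aldolase, was at 1499, 977 and 970 CPM in NFAT5 1, 5 and 8 and 2526 and 1781 CPM in eGFP 3 and 6. Every NFAT5 library lay under both eGFP libraries, with a log2 fold change of -0.91 ± 0.28 (SE), and -0.61 without eGFP 3. Tpi1 (ENSMUSG00000023456, chromosome 6, 124810586 to 124814296), which balances the triose phosphates, was at 834, 451 and 478 CPM in the NFAT5 libraries and 1734 and 819 CPM in the eGFP libraries. NFAT5 1 lay above eGFP 6, and the log2 fold change was -1.12 ± 0.38, and -0.46 without eGFP 3. Eno3 (ENSMUSG00000060600, chromosome 11, 70657202 to 70662513) was at 23.3, 10.2 and 11.0 CPM in the NFAT5 libraries and 128 and 46.8 CPM in the eGFP libraries, without overlap and with a log2 fold change of -2.56 ± 0.81, and -1.63 without eGFP 3. Pfkl (ENSMUSG00000020277, chromosome 10, 77986947 to 78010083) was at 222, 147 and 156 CPM in the NFAT5 libraries and 284 and 256 CPM in the eGFP libraries, also without overlap. Its log2 fold change was -0.63 ± 0.26, and -0.53 without eGFP 3.

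Of the HIF targets, Higd1a (ENSMUSG00000038412, chromosome 9, 121848563 to 121858362) was at 93.7, 102 and 128 CPM in NFAT5 1, 5 and 8 and 388 and 122 CPM in eGFP 3 and 6. Its log2 fold change of -1.24 ± 0.42 rested on eGFP 3, since eGFP 6 lay inside the NFAT5 range, and without eGFP 3 it was -0.16. Ankrd37 (ENSMUSG00000050914, chromosome 8, 45996902 to 46005707) was at 16.9, 9.66 and 8.63 CPM in the NFAT5 libraries and 32.3 and 22.3 CPM in the eGFP libraries. Here both eGFP libraries lay above all 3 NFAT5 libraries, with a log2 fold change of -1.22 ± 0.43, and -0.90 without eGFP 3. Kdm3a (ENSMUSG00000053470, chromosome 6, 71588972 to 71632990) went the other way, at 62.8, 28.8 and 34.3 CPM in the NFAT5 libraries and 12.7 and 26.4 CPM in the eGFP libraries, with a log2 fold change of 1.10 ± 0.47, and 0.69 without eGFP 3. In eGFP 3, 98.9% of Kdm3a reads fell on the transcript Kdm3a-214 and none on Kdm3a-201, which took 57.1% in eGFP 6 and 64.0%, 77.1% and 87.8% in the NFAT5 libraries. These 7 genes shared an adjusted p of 0.653 (edgeR, Benjamini-Hochberg), with unadjusted p between 0.0104 for Aldoa and 0.0469 for Kdm3a.

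The 4 genes fixed for every comparison had log2 fold changes between -0.64 and 0.12. Slc2a1 (chromosome 4, 119108711 to 119137983) was at 189, 120 and 89.8 CPM with NFAT5 and 227 and 182 CPM with eGFP, where NFAT5 1 lay between the eGFP libraries. Its log2 fold change was -0.62 ± 0.31, and -0.44 without eGFP 3. Ldha (chromosome 7, 46841475 to 46855627), the last enzyme on the way to lactate, was at 2433, 2158 and 2447 CPM with NFAT5 and 4789 and 2527 CPM with eGFP, with a log2 fold change of -0.64 ± 0.29 that was -0.09 without eGFP 3. Hk2 had -0.39 ± 0.57, and -0.14 without eGFP 3. Hif1a had 0.12 ± 0.34, which was -0.13 without eGFP 3 and -0.25 without NFAT5 1. The 95% intervals of all 4 genes included 0, from -1.32 to 0.078 for Slc2a1, -1.29 to 0.013 for Ldha, -1.69 to 0.92 for Hk2 and -0.65 to 0.89 for Hif1a. In CPM, no overlap between the groups was seen for 10 members lower with NFAT5 (Pfkl, Pfkp, Aldoa, Aldoc, Gapdh, Eno1, Eno3, Ldha, Egln1 and Ankrd37), against 10.2% of all genes, and for Kdm3a alone on the higher side, against 11.8%. In TPM only Aldoa, Eno3 and Ankrd37 of these 10 stayed apart. Ldha, for example, was at 2086 TPM in NFAT5 1 and 1909 TPM in eGFP 6. An exact rank-sum test of 3 libraries against 2 cannot give a two-sided p under 0.2.

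**Figure D3:**
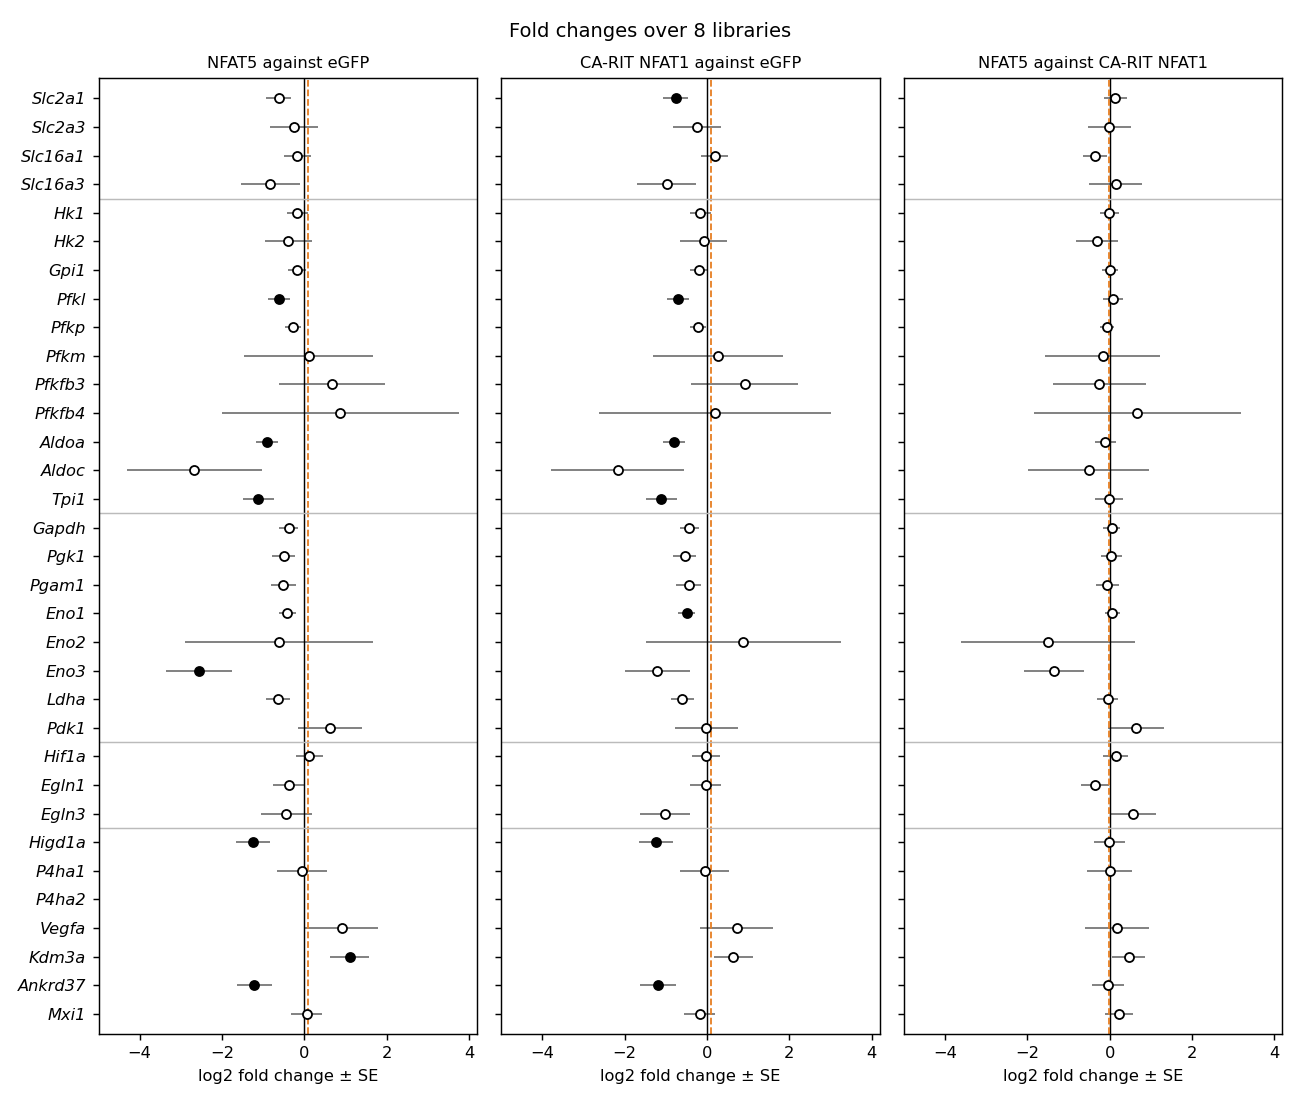
Log2 fold change (points) with its standard error (bars) of each gene in the 3 comparisons over 8 libraries, with the median of all genes as a dashed line and P4ha2 not drawn. Filled points have an unadjusted p under 0.05, and none passes after adjustment. Points of both comparisons with eGFP share the eGFP libraries.

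In the comparison of CA-RIT NFAT1 with eGFP, which asks the same of an NFAT1 uncoupled from AP-1, no member passed either, beside 0.0% of all genes (edgeR, lowest adjusted p of a member 0.679). DESeq2 called 60 genes and no member, and 932 genes were under an unadjusted p of 0.05 in edgeR. Of 33 members, 25 were on the lower side (45.3% of all genes), with a median log2 fold change of -0.22 against 0.10 over all genes. With P4ha2 at its bound in place of its fitted value this median was also -0.22. At an unadjusted p under 0.05 there were 7 members lower (Higd1a, Tpi1, Aldoa, Ankrd37, Pfkl, Slc2a1 and Eno1), beside 3.16% of all genes, and none higher, beside 3.28%. This comparison uses the same eGFP libraries as the one before, so the values that the lists share are not independent.

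Slc2a1 had the narrowest CA-RIT NFAT1 group of these genes, at 118, 119 and 124 CPM in CA-RIT NFAT1 2, 4 and 9 and 227 and 182 CPM in eGFP 3 and 6. The groups did not overlap, and the log2 fold change was -0.76 ± 0.31, and -0.58 without eGFP 3. Aldoa was at 1438, 1050 and 1218 CPM with CA-RIT NFAT1, under both eGFP libraries, with -0.80 ± 0.28, and -0.51 without eGFP 3. Tpi1 was at 587, 496 and 688 CPM, also under both, with -1.11 ± 0.38, and -0.46 without eGFP 3. Pfkl, at 208, 146 and 143 CPM, had -0.71 ± 0.26, and Ankrd37, at 11.0, 12.1 and 13.0 CPM, had -1.19 ± 0.43. Without eGFP 3 these were -0.62 for Pfkl and -0.87 for Ankrd37. Eno1 (chromosome 4, 150236721 to 150248879), the main enolase, was at 2844, 3307 and 3716 CPM with CA-RIT NFAT1 and 5199 and 4038 CPM with eGFP, with -0.49 ± 0.21, and -0.28 without eGFP 3. Higd1a was at 98.5, 102 and 124 CPM with CA-RIT NFAT1, which overlapped eGFP 6, and its -1.24 ± 0.42 was -0.16 without eGFP 3.

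Ldha had -0.60 ± 0.29 with both eGFP libraries and -0.05 without eGFP 3. Hk2 had -0.08 ± 0.57 and Hif1a -0.03 ± 0.33, and without eGFP 3 these were 0.17 for Hk2 and -0.28 for Hif1a. The adjusted p was 0.679 for the 7 genes and for Ldha (edgeR, Benjamini-Hochberg). The unadjusted p of the 7 ran from 0.0175 for Higd1a to 0.0437 for Eno1, and that of Ldha was 0.0675. In CPM, groups did not overlap for 9 members lower with CA-RIT NFAT1 (Slc2a1, Slc16a3, Pfkl, Pfkp, Aldoa, Tpi1, Eno1, Egln3 and Ankrd37), against 9.84% of all genes, and for 0 higher, against 11.4%. Of these 9, Pfkl, Pfkp and Eno1 overlapped in TPM. P4ha2 (chromosome 11, 54100095 to 54131665) had 77 reads over the CA-RIT NFAT1 libraries and 0 in the eGFP libraries, at least 16.5-fold higher when 3 counts over the eGFP group are taken as the floor. The reads came from CA-RIT NFAT1 2 and 9 only, while CA-RIT NFAT1 4 had 0.

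NFAT5 against CA-RIT NFAT1 asks how the vectors differ from each other. No member passed, beside 0.0% of all genes (edgeR, lowest adjusted p 1.00), DESeq2 called 1 gene, and 163 genes were under an unadjusted p of 0.05 in edgeR. Of the 33, 18 were on the lower side with NFAT5, the median log2 fold change was -0.01, and 26 lay within 0.5 of 0 on the log2 scale, beside 72.5% of all genes. The 95% interval lay within 1 of 0 for 15 members, and for the other 18 it reached further. The 1 member at an unadjusted p under 0.05 was P4ha2, on the lower side (0.788% of all genes, and 0.339% on the higher side). P4ha2 had 0 reads over the NFAT5 libraries and 77 over the CA-RIT NFAT1 libraries, of which CA-RIT NFAT1 4 had 0. A floor of 3 counts over the NFAT5 group gives a bound of 19.4-fold lower, which covers counting error only. The 95% interval of the fitted log2 fold change was much wider, from -14.6 to -0.45. The next smallest unadjusted p belonged to Eno3 (-1.35 ± 0.73), the lactate carrier Slc16a1 (-0.36 ± 0.29) and Kdm3a (0.46 ± 0.41).

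Eno3 was at 23.3, 10.2 and 11.0 CPM in NFAT5 1, 5 and 8 and 81.5, 15.4 and 16.3 CPM in CA-RIT NFAT1 2, 4 and 9, so that CA-RIT NFAT1 2 stood out and NFAT5 1 overlapped the rest. Slc16a1 was at 87.5, 65.1 and 56.9 CPM with NFAT5 and 66.7, 94.4 and 108 CPM with CA-RIT NFAT1, which overlapped. Kdm3a was at 62.8, 28.8 and 34.3 CPM with NFAT5 and 36.2, 30.9 and 24.4 CPM with CA-RIT NFAT1. Ldha had -0.04 ± 0.26, Slc2a1 0.14 ± 0.28, Hif1a 0.15 ± 0.30 and Hk2 -0.31 ± 0.52, and all 4 overlapped between the groups in CPM. No member was free of overlap in CPM in either direction, beside 4.01% of all genes lower and 2.9% higher. In TPM the NFAT5 libraries lay under CA-RIT NFAT1 2, 4 and 9 for Hk2 and Eno2. With 3 libraries against 3, an exact two-sided permutation p cannot go under 0.1.

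The eGFP libraries themselves disagreed, and the distance between NFAT5 or CA-RIT NFAT1 and eGFP depended on which was used. Against eGFP 6 alone no member had an unadjusted p under 0.05 in either comparison, 28 of 32 and 28 of 33 were on the lower side, and the medians were -0.29 for NFAT5 and -0.28 for CA-RIT NFAT1, with 0.05 over all genes in both. Against eGFP 3 alone, where 3294 and 3410 genes of 16011 were called, edgeR called 9 members with NFAT5 (lower: Aldoa, Tpi1, Eno3, Ldha, Higd1a and Ankrd37, higher: Pfkm, Pfkfb3 and Kdm3a) and 7 with CA-RIT NFAT1 (lower: Aldoa, Tpi1, Eno1, Ldha and Higd1a, higher: Pfkm and Pfkfb3). These fits take the spread of the lone eGFP library from the other groups. The medians of all genes were then 0.45 and 0.49.

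Between eGFP 3 and eGFP 6 the members parted into those higher and those lower in eGFP 3. Eno3 was at 128 CPM in eGFP 3 and 46.8 CPM in eGFP 6, Higd1a at 388 and 122 CPM, Tpi1 at 1734 and 819 CPM, and Ldha at 4789 and 2527 CPM. Pgk1 was at 807 CPM in eGFP 3 and 503 CPM in eGFP 6, and Pgam1 at 657 and 360 CPM. In the other direction Pfkfb3 was at 0.243 CPM in eGFP 3 and 18.7 CPM in eGFP 6, P4ha1 at 18.3 and 85.5 CPM, Pdk1 at 4.07 and 15.7 CPM, and Pfkm had 0 reads in eGFP 3 and 10.6 CPM in eGFP 6. In all, 19 of the 32 members with reads were higher in eGFP 3 (59.4%, beside 42.1% of all genes). Pfkl, Pfkp, Slc16a3, Egln1 and Mxi1 differed by at most 0.15 on the log2 scale between both, and of these 5 genes only Pfkl had an unadjusted p under 0.05 in the comparisons with eGFP.

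**Figure D4:**
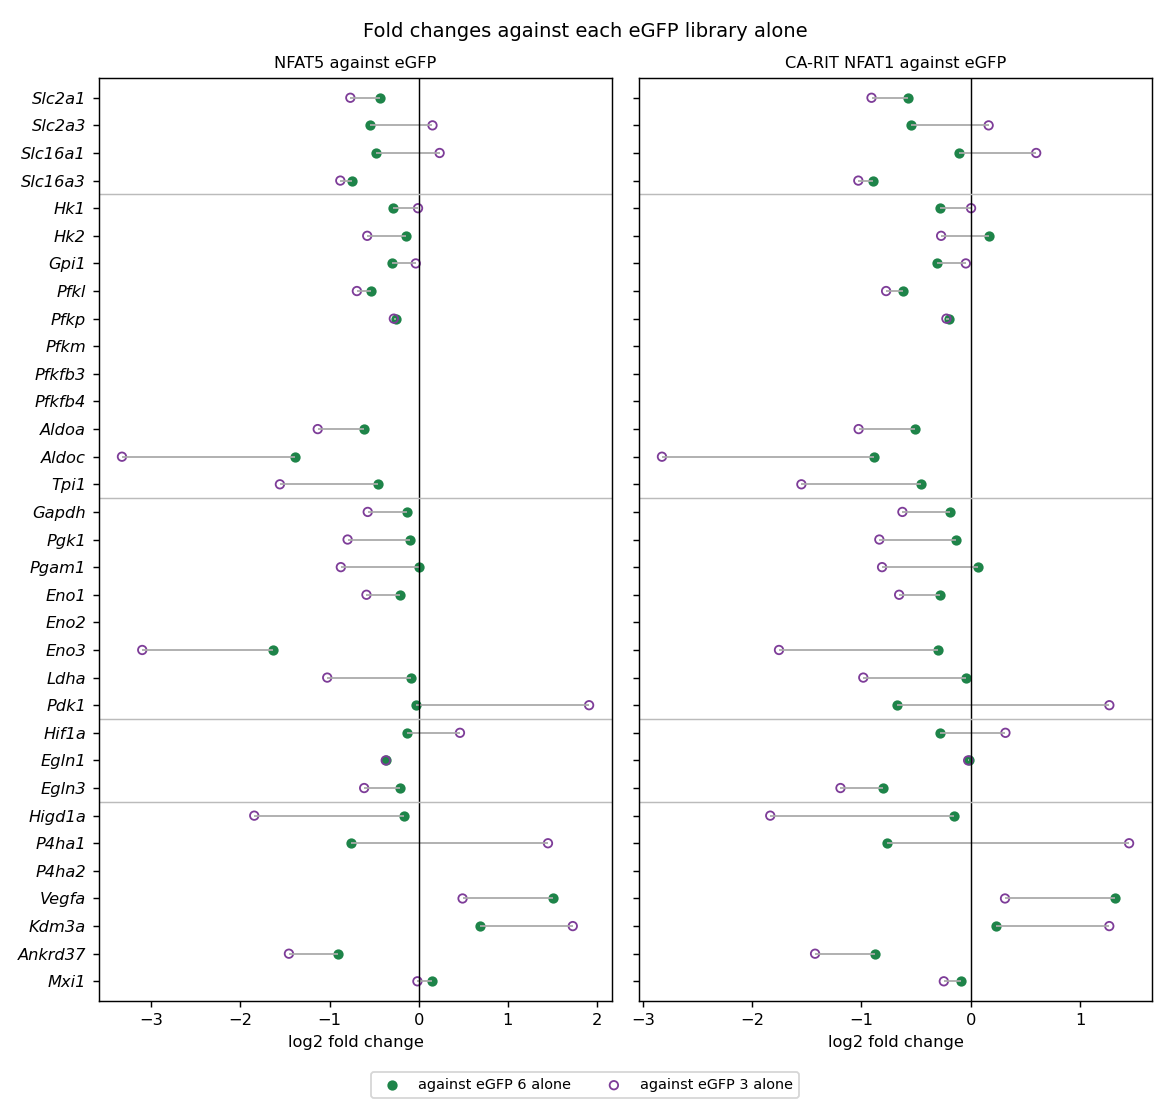
Log2 fold change of each gene when the eGFP group is eGFP 6 alone (filled) or eGFP 3 alone (open), for NFAT5 and for CA-RIT NFAT1. Ldha and Higd1a lie between -0.16 and -0.05 against eGFP 6 and between -1.84 and -0.98 against eGFP 3, while Pdk1 and P4ha1 change sign. P4ha2, Pfkm, Pfkfb3, Pfkfb4 and Eno2, each under 1 CPM in an eGFP library, are not drawn.

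Transcript length moved with these differences. Among genes with a mean effective length under 2000 bases, 15 of 18 members were lower with NFAT5 than with eGFP (median -0.62, beside -0.08 and 55.0% lower over all such genes). Among longer genes, 9 of 14 members were lower (median -0.17, beside 0.36 and 32.3%). With CA-RIT NFAT1 the medians were -0.54 for 19 shorter members (all such genes -0.12) and -0.05 for 14 longer ones (all such genes 0.42). Without eGFP 3 the medians of shorter and longer members were -0.25 and -0.29 with NFAT5, and those of all shorter and all longer genes 0.05 and 0.05. The part of length in the results was not tested.

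Inside the NFAT5 group many members were highest in the same library. NFAT5 1 was the highest of the 3 libraries for 24 of 32 members (75.0%), as it was for 39.7% of all genes tested, and the median log2 ratio of NFAT5 1 to the mean of NFAT5 5 and 8 was 0.78 over the members and 0.02 over all genes. Slc16a3 was at 118 CPM in NFAT5 1 and 28.2 and 16.0 CPM in NFAT5 5 and 8, Slc2a3 at 323 CPM and 145 and 83.3 CPM, and Pdk1 at 28.8 CPM and 9.72 and 7.24 CPM. Hif1a (432 CPM, then 209 and 244 CPM), P4ha1 (76.7 CPM, then 37.1 and 35.7 CPM) and Mxi1 (127 CPM, then 59.6 and 62.7 CPM) were highest in NFAT5 1 too, and so was Hk2 (24.5 CPM, then 12.1 and 6.10 CPM). Of the 6 most abundant members, Aldoa (1499 CPM, then 977 and 970 CPM), Tpi1 (834 CPM, then 451 and 478 CPM) and Gpi1 (660 CPM, then 454 and 512 CPM) were also highest in NFAT5 1. The other 3 were not, as Gapdh was at 2641, 2707 and 3137 CPM in NFAT5 1, 5 and 8, Eno1 at 3471, 3350 and 3541 CPM, and Ldha at 2433, 2158 and 2447 CPM.

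Among the CA-RIT NFAT1 libraries, number 2 was the highest for 17 of 33 members (51.5%, beside 37.4% of all genes), with a median log2 ratio of 0.14 to the other 2. Relative to the mean of the 8 libraries, the members' median was 0.27, -0.30 and -0.34 in NFAT5 1, 5 and 8, 0.08, -0.13 and -0.12 in CA-RIT NFAT1 2, 4 and 9, and 0.20 and 0.28 in eGFP 3 and 6. The median of all genes tested was 0.06, 0.04 and 0.01 in the NFAT5 libraries and 0.08, 0.03 and 0.04 in the CA-RIT NFAT1 libraries. In eGFP 3 and 6 it was -0.28 and 0.05. Leaving out NFAT5 1 moved the median log2 fold change of the members to -0.51 against eGFP and -0.24 against CA-RIT NFAT1, with 29 of 32 and 26 of 33 members on the lower side, and still no member was called. Over the single members, the pooled spread within groups ran from 0.14 log2 units for Pfkp and 0.17 for Eno1 to 1.65 for Pfkfb3 and 1.62 for Aldoc. The 6 members with the widest spread (Pfkfb3, Aldoc, Pfkfb4, Pfkm, Eno3 and Eno2) all had a median of at most 21.7 TPM.

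**Figure D5:**
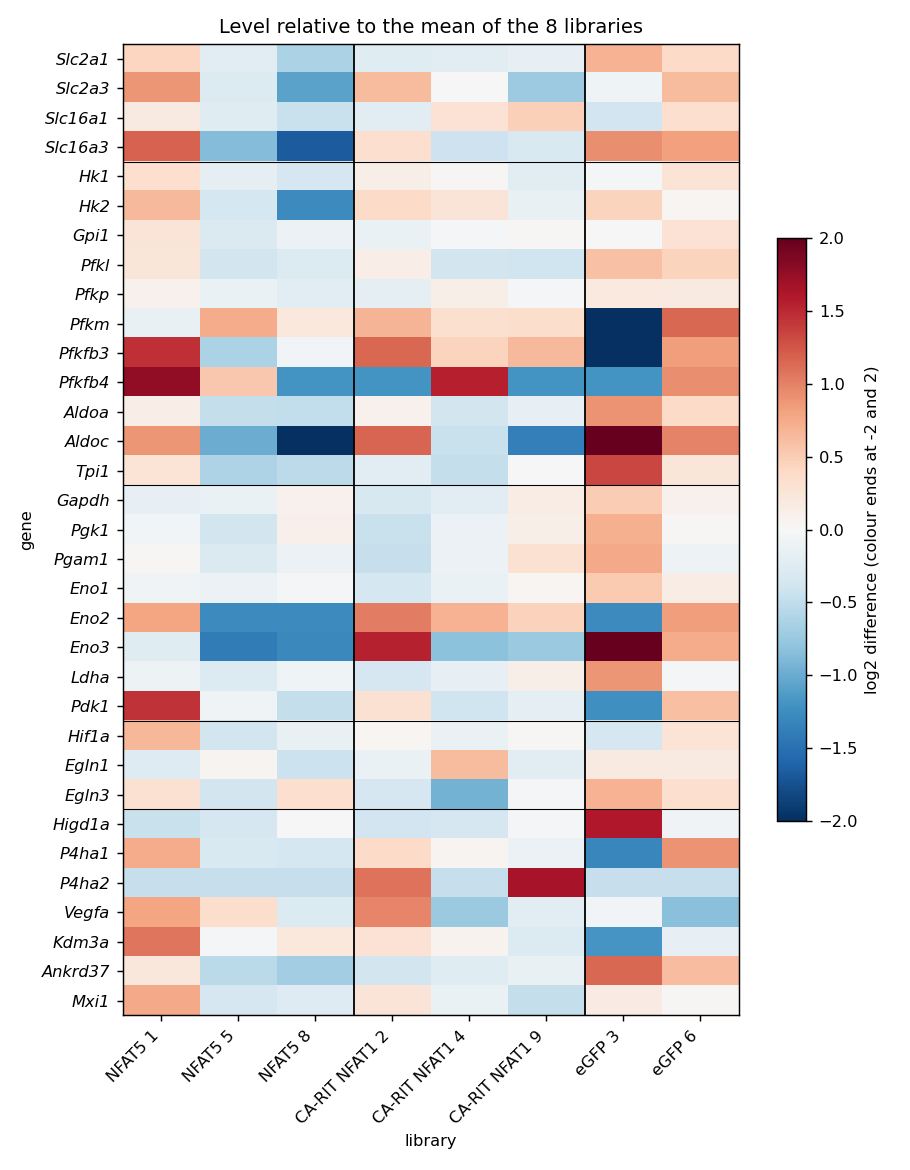
Level of each gene in each of the 8 tested libraries relative to its mean over them, as a log2 difference of log2(CPM + 0.5) in colour, with lines between groups and between roles. NFAT5 1 stands above NFAT5 5 and 8 for Slc16a3, Slc2a3, Pdk1 and Hif1a, and eGFP 3 departs from eGFP 6 in both directions.

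Markers of other cells differed between these same libraries. The 14 macrophage and monocyte markers summed to 176, 63.3 and 158 TPM in NFAT5 1, 5 and 8, 315, 111 and 179 TPM in CA-RIT NFAT1 2, 4 and 9 and 194 and 140 TPM in eGFP 3 and 6. Arg1 was at 11.7, 0 and 10.0 TPM in the NFAT5 libraries, 38.0, 0.396 and 15.0 TPM in the CA-RIT NFAT1 libraries and 15.8 and 0.253 TPM in the eGFP libraries. Lyz2, another defining gene of macrophages, was at 10.2, 11.3 and 47.0 TPM in the NFAT5 libraries, 9.63, 9.46 and 39.3 TPM in the CA-RIT NFAT1 libraries and 0 in eGFP 3 and 6. The 11 mast cell and tumour markers, of which Fcer1a, Tpsb2 and Tpsab1 were at 0, summed to 113, 171 and 224 TPM in the NFAT5 libraries, 174, 104 and 64.9 TPM in the CA-RIT NFAT1 libraries and 191 and 41.2 TPM in the eGFP libraries. NFAT5 1 was the highest NFAT5 library for the macrophage list and the lowest for the mast cell list. Single macrophage markers differed in this, with Cd68 and Itgam highest in NFAT5 1 (91.6 and 27.8 TPM) and Lyz2 in NFAT5 8. Itgam was at 6.98 TPM in CA-RIT NFAT1 10, inside its range of 1.31 to 53.9 TPM in the 8 libraries. In eGFP 3 and 6, Cd68 was at 85.2 and 113 TPM and Itgam at 1.31 and 23.1 TPM, while Chil3 was at 40.3 and 0 TPM. CA-RIT NFAT1 2 and eGFP 3 were the highest of their groups for both lists. The part of these cells in the results was not tested, and in bulk RNA fewer cells of a type cannot be told apart from less RNA per cell.

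The members stood differently in CA-RIT NFAT1 10, where the mast cell and macrophage markers summed to 4451 and 4367 TPM and the CD8 T cell markers to 313 TPM, against 46535 to 67062 TPM in the 8 libraries. Of the 11 mast cell and tumour markers, 5 had reads there (Cpa3, Kit, Trap1a, Gata2 and Cma1), and Hdc was at 0 TPM. In this library the 33 genes took 2.28% of the TPM, and 18 of them lay above the range of the 8 libraries, 4 below it and 11 inside it. Slc2a3 was at 531 TPM, 8.81 times the median of the 8 libraries, Egln3 at 49.6 TPM, Pdk1 at 61.5 TPM and Ldha at 5245 TPM. Phosphofructokinase was shared nearly equally between Pfkl (49.6%) and Pfkp (46.6%), and Egln3 took 83.9% of the PHD sum, both outside the range of the 8 libraries. Ankrd37 had 0 reads and Hif1a was at 36.5 TPM, under all 8 libraries. With all 10 libraries in the fit, the members' median was -0.10 for NFAT5 against eGFP, 0.04 for CA-RIT NFAT1 against eGFP and -0.33 for NFAT5 against CA-RIT NFAT1. The other library left out, eGFP 7, had 17 reads on 8 of the members.

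Of the other genes of these pathways, 0 were called by edgeR in any list and comparison. For NFAT5 against eGFP, the list of 22 other HIF targets had 20 tested, 15 on the lower side and a median of -0.48. Its genes at an unadjusted p under 0.05 were the mitophagy receptor Bnip3, at 23.1 ± 9.44 CPM in NFAT5 libraries (SD, n = 3) and 103 ± 79.0 CPM in eGFP libraries (SD, n = 2), Ndrg1 and the membrane-binding Anxa2. Their log2 fold changes were -2.15 for Bnip3, -1.56 for Ndrg1 and -0.51 for Anxa2. Against eGFP 6 alone Bnip3 had -1.01, Ndrg1 0.05 and Anxa2 -0.29. Of the 16 other glycolysis enzymes, 11 were tested and 7 were lower (median -0.14), among them Pkm, the pyruvate kinase. Pkm was at 1929 ± 373 CPM in NFAT5 libraries (SD, n = 3) and 2836 ± 314 CPM in eGFP libraries (SD, n = 2). Its log2 fold change was -0.56 ± 0.22, and -0.42 without eGFP 3. Of 15 genes of pyruvate and lactate handling, 12 were tested and 11 were lower (median -0.29), with Bsg, the chaperone of the lactate carriers, at -0.60 ± 0.24, and -0.16 without eGFP 3. The pentose phosphate pathway had 4 of 7 on the higher side (median 0.08), and its entry enzyme G6pdx was at 117 ± 12.9 CPM in NFAT5 libraries (SD, n = 3) and 69.5 ± 24.4 CPM in eGFP libraries (SD, n = 2), a log2 fold change of 0.75 ± 0.27, and 0.44 without eGFP 3. Of 11 partners of HIF and oxygen sensing, 9 were tested and 7 were lower (median -0.23), none at an unadjusted p under 0.05.

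With CA-RIT NFAT1 against eGFP, 13 of 20 other HIF targets were lower (median -0.40), with Bnip3 at -2.53 ± 0.66, the oxidase Ero1l at -0.75 ± 0.26 and Ndrg1 at -1.56 ± 0.63. Without eGFP 3 they had -1.39 for Bnip3, -0.38 for Ero1l and 0.04 for Ndrg1. Bnip3 was called by DESeq2, the only gene of these lists that it called. Bsg had -0.73 ± 0.24, the pyruvate carrier subunit Mpc2 -0.67 ± 0.29 and G6pdx 0.67 ± 0.27, and without eGFP 3 these were -0.30 for Bsg, -0.27 for Mpc2 and 0.36 for G6pdx. In this comparison 6 of 11 glycolysis enzymes (median -0.42), 9 of 12 genes of pyruvate and lactate (-0.18), 3 of 7 of the pentose phosphate pathway (0.14) and 6 of 9 of oxygen sensing (-0.09) were lower. NFAT5 against CA-RIT NFAT1 had medians between -0.04 and 0.11 in the 5 lists, and Gpd2, the mitochondrial glycerol phosphate dehydrogenase, was the only gene at an unadjusted p under 0.05, at 109 ± 16.4 CPM in NFAT5 libraries (SD, n = 3) and 150 ± 17.9 CPM in CA-RIT NFAT1 libraries (SD, n = 3), a log2 fold change of -0.45 ± 0.19.

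Several of the members share sequence with near-identical copies among which the authors' estimate had to divide reads. Of the 33, 11 had such copies, and for 7 of them the copies held over 1% as many reads as the gene in some library. Copies of Gapdh held 63.0% to 69.9% as many reads as Gapdh, those of Pgam1 18.7% to 27.2%, of Pgk1 4.61% to 12.6%, of Eno1 1.92% to 7.56% and of Higd1a 4.41% to 6.81%. The levels of Gapdh and Pgam1 are therefore uncertain. With the copies added to each member, no member was called and the medians were -0.38, -0.23 and -0.01 in the 3 comparisons. The copies of Aldoa, Tpi1 and Ldha held at most 0.0322% as many reads as the gene.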

How the data were processed

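RNA of sorted CD8 T cells from tumours was sequenced after tumour digestion, Ficoll enrichment, RNeasy Plus Micro extraction and a Clontech RNA-seq library, per the labels' protocols. Salmon 0.14.1 and the builds GRCm38.p6 and mm10 are named, per the submitters' processing notes, while trimming, options, strandedness and mouse numbers are not stated there. Each table gives, per the file headers, TPM and estimated read numbers for 140919 transcripts with both kinds of length. The deposited estimated counts were used for all tests, the deposited TPM values for levels and shares, and the deposited effective lengths (other values, in bases) for length classes and offsets.

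Of the transcripts, 139966 were matched to GENCODE M21, a release inferred from lengths that were identical for 99.9% of them, and 953 were left out (at most 0.292% of a library's reads). Estimated counts were summed per gene and rounded. Aldoa was summed over 2 gene IDs. The members, gene lists, naming rule and tests were chosen with earlier results of these data known. The test was edgeR's quasi-likelihood fit (4.0.16, under R 4.3.3) over 8 libraries (TMM scaling, default low-count filter, all 3 groups in a single fit, Benjamini-Hochberg adjustment at 0.05), with a biological coefficient of variation of 0.725. Standard errors are the fold change over the root of its F statistic. Fold changes are printed for members with an unadjusted p under 0.05 in the comparison, or for the 4 of smallest p where fewer have that, and for Slc2a1, Hk2, Ldha and Hif1a throughout. Genes of other lists are named at an unadjusted p under 0.05, at most 5 per list. Levels beside fold changes are TMM-scaled CPM instead of the planned TPM, a choice made after the data were seen, since TPM also carries effective lengths. The script was tested on simulated data.

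The alternatives were all 10 libraries, each of the 8 left out, scaling by RLE or upper quartile, every gene kept, a stricter filter (10 reads, 5 CPM), DESeq2 1.42.0, limma 3.58.1 voom with sample quality weights, only the groups compared, and average transcript length offsets. Added after the data were seen were near-identical copies summed into their gene (at least 90% identity over 200 bases) and log2(TPM + 1) in limma. The 95% intervals of fold changes include the spread between libraries, and the floor covers counting error only.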

Additional observations from a re-analysis of the deposited data

Results flagged for a closer look

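In the CA-RIT NFAT1 group, the only group with 4 libraries, 12 of the 33 members had 1 library far from the other 3 in TPM (its gap to the nearest, over the range of all 4, was above Dixon's critical value, which chance gives in about 1 of 20 groups). In all 12 that library was CA-RIT NFAT1 10, which had 1 read on Cd8a and was left out of the tests, and 11 of the 12 were highest in it. Slc2a1 was at 208 TPM there (58.0 to 61.0 TPM in CA-RIT NFAT1 2, 4 and 9), Slc2a3 at 531 TPM (33.3 to 107 TPM), Gpi1 at 425 TPM (393 to 397 TPM) and Pfkm at 16.3 TPM (2.12 to 2.93 TPM). Pfkfb4 was at 18.3 TPM (0 to 1.84 TPM), Tpi1 at 2269 TPM (418 to 551 TPM), Pgam1 at 839 TPM (186 to 293 TPM) and Eno2 at 22.2 TPM (1.17 to 1.86 TPM). Ldha was at 5245 TPM (1730 to 2018 TPM), Pdk1 at 61.5 TPM (5.50 to 7.07 TPM) and Egln3 at 49.6 TPM (0.860 to 1.73 TPM). Ankrd37 alone was lowest, at 0 TPM (16.1 to 17.9 TPM). Groups of 3 were not examined.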

How the results depend on the processing

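No member was called in any of the 3 comparisons under any alternative, except without eGFP control 6. That fit holds a lone eGFP library and takes its spread from the other groups. In both comparisons with eGFP it also called a large share of all genes tested. The counts it gave below therefore cannot be read as particular to these lists. Leaving out each library in turn gave 0 to 9 called members for NFAT5 against eGFP and 0 to 7 for CA-RIT NFAT1 against eGFP, the highest in each case being without eGFP control 6, and 0 for NFAT5 against CA-RIT NFAT1. In the other lists these fits gave 0 to 1 (other glycolysis enzymes, both comparisons with eGFP), 0 to 2 and 0 to 3 (pyruvate and lactate, NFAT5 and CA-RIT NFAT1), 0 to 2 (pentose phosphate pathway, both) and 0 to 6 (other HIF targets, both) called genes, all above 0 only without eGFP control 6, and DESeq2 called 1 other HIF target (Bnip3) for CA-RIT NFAT1 against eGFP. The members' median moved by more than the spread between replicates (0.23 log2 units) with all 10 libraries (-0.10 for NFAT5 and 0.045 for CA-RIT NFAT1 against eGFP, and -0.33 for NFAT5 against CA-RIT NFAT1) and with log2(TPM + 1) in limma (-0.14 and 0.054 against eGFP). It also moved by more than that for NFAT5 against CA-RIT NFAT1 without NFAT5 1 (-0.24). Leaving out 1 library gave medians of -0.51 to -0.24, -0.36 to -0.20 and -0.24 (without NFAT5 1) to 0.095 (without NFAT5 5). Against eGFP, log2(TPM + 1) put 18 of 32 members on the lower side with NFAT5 and 16 of 33 with CA-RIT NFAT1. With all 10 libraries these were 19 of 32 and 12 of 32. The cause was not tested. DESeq2 called 102, 60 and 1 genes in the 3 comparisons and edgeR 0.

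Of the 28 fold changes printed for members, 9 turned round under some alternative, and Ndrg1 of the other HIF targets turned to 0.05 (NFAT5) and 0.04 (CA-RIT NFAT1) against eGFP without eGFP control 3. Hif1a against eGFP was -0.081 in limma voom for NFAT5, and for CA-RIT NFAT1 0.0037 with length offsets and 0.27 with log2(TPM + 1), with -0.25 to 0.46 (NFAT5) and -0.28 to 0.32 (CA-RIT NFAT1) when 1 library was left out. For CA-RIT NFAT1 against eGFP, all 10 libraries gave 0.16 for Hk2, 0.028 for Pfkl and 0.25 for Ldha, Hk2 was 0.054 with log2(TPM + 1), and leaving out 1 library gave Hk2 -0.27 to 0.17. For NFAT5 against CA-RIT NFAT1, Slc2a1 was -0.39 with all 10 libraries, Hif1a -0.071 in limma voom and Ldha 0.013 with length offsets, and leaving out 1 library gave Slc2a1 -0.21 to 0.36, Hif1a -0.24 to 0.34, Ldha -0.14 to 0.092 and Hk2 -0.97 to 0.055. Of 60 isoenzyme shares, 8 moved by more than their spread when taken from estimated reads, those of Slc16a1 and Slc16a3 by up to 26.8 percentage points. No paired analysis was possible because the library numbers 1 to 10 each occur once and no number is shared between groups. Depth limits P4ha2, which had 77 reads over the 8 libraries.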
